A study of Homo sapiens with 18 samples.

Results

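The comparison of PU with DMSO in MAVER cells covers 6 of the 18 libraries of the series, 3 treated with PU and 3 with DMSO, chosen by their labels alone. MAVER (MAVER-1) and JEKO1 are established human mantle cell lymphoma lines, a B cell malignancy. The PU group was MAVER cells given PU for 6 h, and the DMSO group was MAVER cells given the solvent for 6 h. The labels spell out neither what PU is nor its dose, so the drug is called PU here. MAVER cells were also treated for 6 h with IB, read here as ibrutinib at 0.4 µM, an inhibitor of the kinase BTK, or with KPT, read as selinexor at 1.5 µM, an inhibitor of the nuclear export receptor XPO1, with 3 libraries each. The design text calls the 3 libraries of a group biological triplicates. Each group is 1 cell line at 1 time point. The remaining 6 libraries are JEKO1, which has no PU group and was not used here.

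The question put to the PU libraries is whether their pattern is the one known for inhibition of HSP90. HSP90 is an abundant chaperone that folds kinases, receptors and transcription factors, its clients, together with HSP70 and a set of co-chaperones. It also holds the transcription factor HSF1 inactive, and when HSP90 is blocked HSF1 binds heat shock elements in the promoters of chaperone genes and raises their transcription. HSP90 inhibitors are therefore known for a rise of cytosolic chaperone mRNAs, and for loss of client proteins, which transcript counts do not measure.

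Of 25369 genes in the table, 11099 had a mean of at least 10 normalized counts over the 12 MAVER libraries and were tested. A change was called at an adjusted p under 0.05 (limma, Benjamini-Hochberg over all genes tested), on log2(normalized count + 1), which understates the change of low genes. With PU, 6121 genes (55.1%) were called, of which 3066 (27.6%) rose and 3055 (27.5%) fell against DMSO. By at least 2-fold, 357 (3.22%) rose and 138 (1.24%) fell, and the median log2 fold change over all genes tested was 0.01. Reads per library ranged between 8035123 and 17040599 with PU and between 9897029 and 12085782 with DMSO. Correlations of log2 values were between 0.993 and 0.995 within the PU and DMSO groups and between 0.971 and 0.974 across them. Values given per library are normalized counts, in the order A, B and C. The ribosomal precursor RNA45S5 had 32274, 15503 and 15476 in the PU libraries, against 16069, 19295 and 13835 in the DMSO libraries, so PU library A stood apart for this RNA. Without that library 5647 genes were called. All 14 B cell markers were tested, and their summed level was 117300 ± 4726 normalized counts with PU and 137500 ± 1329 with DMSO (SD, n = 3 each). Of these markers, 4 rose and 4 fell, where 27.6% and 27.5% of all genes tested did. Most of the sum was CCND1 and CD74, which fell, with means of 42986 and 39018 with PU and 57957.5 and 48581 with DMSO. MS4A1, CD79B and CD5 were among those that rose. Of 13 T and NK cell markers in the table, 12 stayed under 10 normalized counts in all 6 libraries, as did 10 of 12 myeloid and 9 of 14 stromal and epithelial markers. The summed T and NK list lay between 124 and 151 normalized counts with PU and between 68.0 and 75.3 with DMSO, most of it PRF1, with 5 of its genes at 0 in all 6 libraries. The myeloid list lay between 31.6 and 38.5 with PU and between 27.6 and 39.1 with DMSO, with 7 genes at 0. The part of these marker levels in the results was not tested. In bulk libraries fewer cells of a type and less RNA per cell cannot be told apart.

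Heat shock genes were among the largest rises, and 5 of their promoters are shown for the element that HSF1 is known to bind. Each is printed because it holds a match to the three-unit heat shock element, spelled GAANNTTCNNGAA or TTCNNGAANNTTC and searched on both strands in the 250 bases before the gene's start. Capitals mark the match, and the sequences read 5′ to 3′ on the gene's strand, from RefSeq (GRCh38.p14). The stretch of HSPA6 lies at chr1:161524446-161524535 on the plus strand, that of SERPINH1 at chr11:75562157-75562246 on the plus strand, and that of HSP90AA1 at chr14:102087063-102087152 on the minus strand. The stretch of HSP90AB1 lies at chr6:44247758-44247847 on the plus strand and holds 2 matches. The stretch of CHORDC1 lies at chr11:90223050-90223139 on the minus strand, where 3 overlapping matches run into each other.
HSPA6: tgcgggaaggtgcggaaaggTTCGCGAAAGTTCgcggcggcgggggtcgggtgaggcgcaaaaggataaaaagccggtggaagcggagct
SERPINH1: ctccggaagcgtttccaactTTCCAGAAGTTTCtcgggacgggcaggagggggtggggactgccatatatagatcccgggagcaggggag
HSP90AA1: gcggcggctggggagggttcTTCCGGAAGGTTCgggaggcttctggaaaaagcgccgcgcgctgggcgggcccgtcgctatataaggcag
HSP90AB1: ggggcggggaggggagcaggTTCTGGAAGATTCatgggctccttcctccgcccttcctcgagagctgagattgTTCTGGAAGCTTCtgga
CHORDC1: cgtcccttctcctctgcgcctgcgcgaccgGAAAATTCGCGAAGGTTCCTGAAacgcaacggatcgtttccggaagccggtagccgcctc
Among the 24 inducible heat shock genes tested, 22 had a promoter in the RefSeq table, and 8 of these (36.4%) held the three-unit element. The share was 0.45% over the 8887 genes tested that had a promoter there (80.1% of 11099) and 0.441% over all 35116 promoter windows. A shorter two-unit form, GAANNTTC or TTCNNGAA, which is contained in the longer one, occurred in 14 of the 22 (63.6%), against 12% of the genes tested. BAG3, HSPH1 and AHSA1, which also rose, held neither form in this window. A match describes letters in a window and does not show that a factor was bound.

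PU raised nearly the whole set of inducible heat shock genes in MAVER cells. Of 28 such genes, 24 were tested: 23 rose, 20 of them by at least 2-fold, and 1 fell, with a median log2 fold change of 1.63. Over all genes tested, 27.6% rose, 3.22% by at least 2-fold, and 27.5% fell, with a median of 0.01. HSPA4L, an HSP110 relative, had 42.6, 37.4 and 38.2 in the PU libraries, against 2.76, 1.91 and 0.782 in the DMSO libraries, and it passed the filter on low values through the PU group, the single group with a mean over 10. Among the 23 members with a DMSO mean of at least 10, 22 rose and 1 fell, and the median was 1.61. The 4 members not tested for low values were HSPA1A, HSPA1L, HSPB8 and CRYAB. Summed over the list, heat shock genes took 3.90% ± 0.0821 of all reads with PU and 1.24% ± 0.0194 with DMSO (SD, n = 3 each).

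HSPA6, a strictly stress-induced HSP70, had 951, 936 and 954 in the PU libraries, against 18.4, 8.57 and 12.5 in the DMSO libraries (log2 fold change 6.12, SE 0.24, limma adjusted p = 9.97e-24). It was low in all DMSO libraries and high and even in the 3 PU libraries. HSPA1B, the main inducible HSP70, had 983, 1373 and 1245 in the PU libraries, against 37.8, 46.7 and 29.7 in the DMSO libraries (log2 fold change 4.95, SE 0.19, limma adjusted p = 5.46e-24). HSPA1B and HSPA1A are near-identical copies whose reads could be split by the counting, and HSPA1A was listed at 0 in 5 of the 6 libraries and at 0.567 in the other, PU library B, so the level of either copy alone is uncertain.

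The small heat shock protein HSPB1 (HSP27) had 16169, 16958 and 17505 in the PU libraries, against 1427, 1364 and 1415 in the DMSO libraries (log2 fold change 3.59, SE 0.06, limma adjusted p = 8.08e-37). BAG3, a co-chaperone that hands HSP70 clients to autophagy, had 4189, 4250.4 and 4707 in the PU libraries, against 473, 475 and 485 in the DMSO libraries (log2 fold change 3.19, SE 0.061, limma adjusted p = 8.43e-35). For both genes the lowest PU library was many times above the highest DMSO library. SERPINH1 (HSP47), the collagen chaperone of the endoplasmic reticulum (ER), had 634, 622 and 674 in the PU libraries, against 62.6, 80.0 and 80.5 in the DMSO libraries (log2 fold change 3.10, SE 0.14, limma adjusted p = 2.08e-21).

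HSP40 co-chaperones deliver substrates to HSP70. DNAJB1 had 12176, 12071 and 12313 in the PU libraries, against 1894, 1902 and 1982 in the DMSO libraries (log2 fold change 2.66, SE 0.041, limma adjusted p = 9.72e-38). DNAJA4 had 634, 666 and 641 in the PU libraries, against 67.2, 65.7 and 82.1 in the DMSO libraries (log2 fold change 3.16, SE 0.12, limma adjusted p = 7.54e-24). DNAJB4, DNAJA1 and DNAJB6 rose with log2 fold changes of 1.96, 1.41 and 1.17. Over the 36 members of the DNAJ family tested, 13 rose, 10 fell and 13 were not called, with a median of 0.04, where 27.6% of all genes tested rose and 27.5% fell. By at least 2-fold, 6 members rose, against 3.22% of all genes.

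The cytosolic HSP90 genes themselves rose. HSP90AA1, the stress-inducible form, had 128494, 135668 and 126139 in the PU libraries, against 21913, 21242 and 20791 in the DMSO libraries (log2 fold change 2.61, SE 0.038, limma adjusted p = 8.49e-39). HSP90AB1, the constitutive form, had 72368, 72108 and 71544 in the PU libraries, against 23974, 23795 and 23188 in the DMSO libraries (log2 fold change 1.61, SE 0.035, limma adjusted p = 2.15e-32). In 23 of the 24 heat shock genes, both HSP90 genes among them, every PU library was above every DMSO library (31.1% of all genes tested), and in 1, HSPA5, every PU library was below (30.1% of all genes). The 23 include HSPA4L, which passed the filter through the PU group. Together the HSP90 pair took 2.08% ± 0.0648 of all reads with PU and 0.476% ± 0.00985 with DMSO (SD, n = 3 each). The HSP110 gene HSPH1, a nucleotide exchange factor for HSP70, had 17647, 17027 and 16783 in the PU libraries, against 3747, 3549 and 3547 in the DMSO libraries (log2 fold change 2.25, SE 0.041, limma adjusted p = 1.71e-35). HSPA4, its relative, rose by 1.28 on the log2 scale, and the constitutive HSP70 HSPA8 by 0.74.

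**Figure D1:**
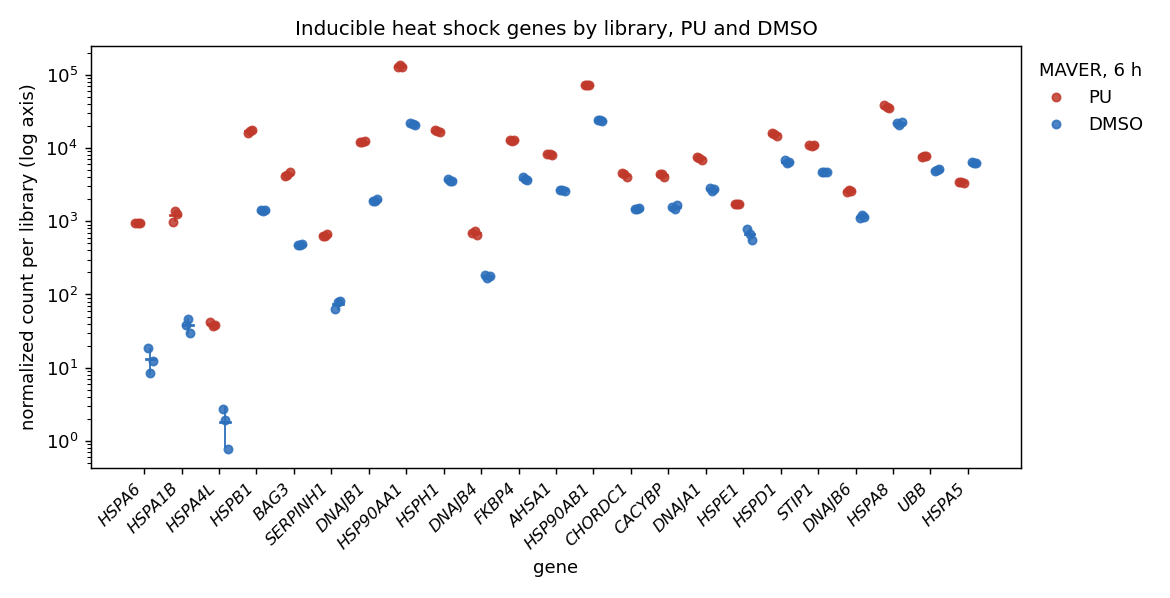
Normalized counts (log axis) of 23 of the 24 inducible heat shock genes tested in each of the 3 PU libraries (red, left) and 3 DMSO libraries (blue, right) of MAVER cells, with horizontal lines at the mean and vertical bars of 1 SD. The PU libraries lie above all DMSO libraries for 22 of the genes plotted and below them for HSPA5.

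Chaperones of other compartments changed in both directions. The mitochondrial chaperonin pair HSPD1 (HSP60) and HSPE1 (HSP10) rose by 1.25 and 1.38 on the log2 scale, and the mitochondrial HSP70 HSPA9 by 0.45. The mitochondrial HSP90 paralogue TRAP1 fell, with 1700.2, 1607 and 1714 in the PU libraries, against 2599, 2699.6 and 2663 in the DMSO libraries (log2 fold change -0.67, SE 0.046, limma adjusted p = 6.82e-16). The ER HSP70 HSPA5 (BiP) fell, with 3456, 3446 and 3315 in the PU libraries, against 6415, 6215 and 6192 in the DMSO libraries (log2 fold change -0.88, SE 0.039, limma adjusted p = 4.08e-22). It is the single inducible heat shock list member that fell. The ER HSP90 paralogue HSP90B1 (GRP94) and the ER nucleotide exchange factor HYOU1 also fell, with log2 fold changes of -0.30 and -0.49. Of the 15 HSP90 and HSP70 family members tested with a DMSO mean of at least 10, 8 rose and 5 fell, with a median of 0.45 (27.6% and 27.5% of all genes tested rose and fell).

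Of 25 HSP90 co-chaperones tested, 13 rose, 5 fell and 7 were not called, with a median of 0.20. Over all genes tested, 27.6% rose and 27.5% fell. AHSA1, which stimulates the HSP90 ATPase, had 8411, 8374 and 8108 in the PU libraries, against 2654, 2639 and 2629 in the DMSO libraries (log2 fold change 1.65, SE 0.041, limma adjusted p = 1.68e-30). FKBP4, an immunophilin that binds HSP90 in steroid receptor complexes, had 12715, 12628 and 12685 in the PU libraries, against 3972, 3726 and 3709 in the DMSO libraries (log2 fold change 1.74, SE 0.042, limma adjusted p = 8.41e-31). CHORDC1, CACYBP, PPID (cyclophilin 40), STIP1 (HOP, which bridges HSP70 and HSP90) and ST13 (HIP) rose with log2 fold changes of 1.54, 1.46, 1.30, 1.20 and 1.16. PTGES3 (p23) rose by 0.61. The kinase-loading factor CDC37 was not called, with 2659.8, 2793 and 2829.5 in the PU libraries, against 2512, 2581 and 2755 in the DMSO libraries (log2 fold change 0.08, SE 0.046, limma adjusted p = 0.152). FKBP5, a glucocorticoid-responsive immunophilin, fell by 0.38 on the log2 scale, the phosphatase PPP5C fell by 0.40 and TELO2, which stabilizes PIKK kinases, fell by 0.85.

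The ubiquitin gene UBB, which is heat shock inducible, rose by 0.63 on the log2 scale. Of 17 genes of ubiquitin supply and aggregate clearance, 12 rose and 3 fell (27.6% and 27.5% of all genes tested). ZFAND2A (AIRAP), a proteasome-associated stress protein, rose with 792, 823 and 794 in the PU libraries, against 316, 320.1 and 296 in the DMSO libraries (log2 fold change 1.37, SE 0.078, limma adjusted p = 1.88e-18), and the autophagy receptor SQSTM1 (p62) rose by 0.81. Of 31 proteasome subunits tested, 3 rose (5 without PU library C) and 8 fell, with a median of -0.04, against the same shares of all genes. Of 14 CCT chaperonin and prefoldin subunits, 3 rose, namely CCT4, TCP1 and CCT3 at 0.67, 0.51 and 0.44, and 2 fell. Here too 27.6% of all genes tested rose and 27.5% fell. Without PU library C, 5 rose and 1 fell, and without DMSO library A or C, 1 fell. HSF1 itself fell at the RNA level, with 699, 610.3 and 771 in the PU libraries, against 936, 956 and 929 in the DMSO libraries (log2 fold change -0.45, SE 0.062, limma adjusted p = 8.46e-08), and its binding protein HSBP1 rose by 0.51. HSF2 was not called, with a log2 fold change of 0.00 (limma adjusted p = 0.994).

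The other drugs were set against the same 3 DMSO libraries, so the 3 contrasts with DMSO are not independent. For the 24 heat shock genes the median log2 fold change against DMSO was 1.63 with PU, -0.0039 with KPT and -0.24 with IB. KPT raised 8 and lowered 7 of them (27.3% and 28.5% of all genes tested rose and fell with KPT), and IB raised 0 and lowered 17 (10.1% and 9.65% of all genes). HSPA6 had log2 fold changes of 6.12 with PU, 0.02 with KPT and -0.72 with IB. HSP90AA1 had 2.61 with PU, 0.40 with KPT and -0.24 with IB. Compared directly and without DMSO, 23 of the 24 were higher with PU than with KPT (28.3% of all genes were) and 23 were higher with PU than with IB (27.5% of all genes), with medians of 1.71 and 1.93. HSPA4L, which passed the filter through the PU group, is among the 23 in both, and its place there is only a description. The member lower with PU in both was HSPA5.

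**Figure D2:**
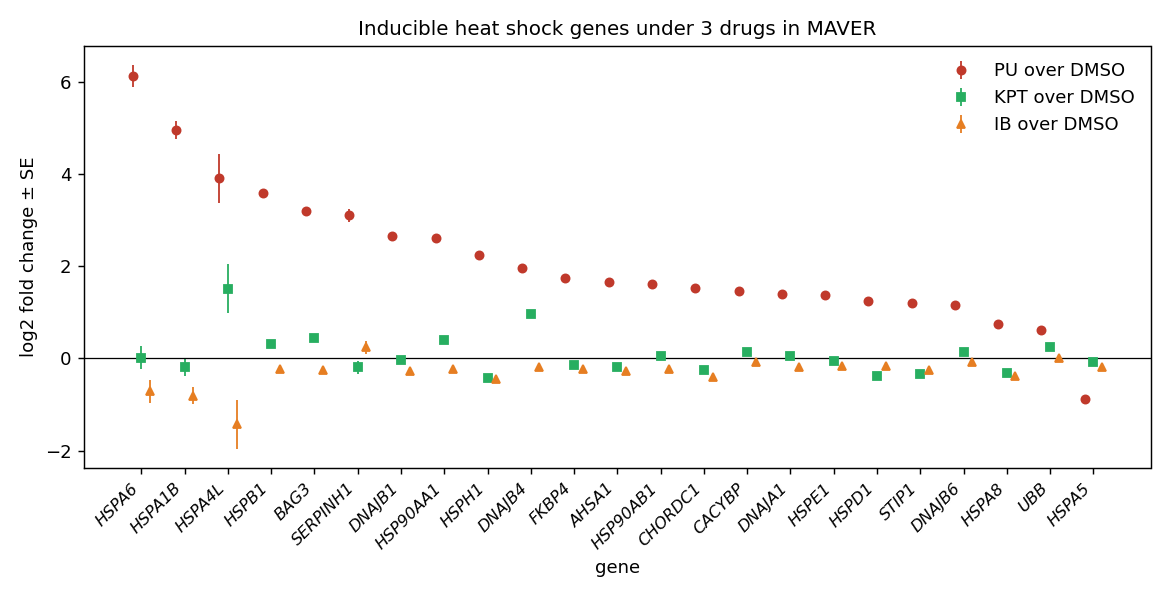
Log2 fold change over DMSO, with bars of 1 SE from the limma fit, for 23 of the 24 inducible heat shock genes under PU (circles), KPT (squares) and IB (triangles) in MAVER cells. PU values run from 6.12 for HSPA6 to -0.88 for HSPA5; all 3 contrasts share the DMSO libraries.

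Known HSP90 clients were examined at the RNA level, where no uniform direction was found. Of 41 client kinases and receptors tested, 15 rose, 6 fell and 20 were not called, with a median of 0.06. Over all genes tested, 27.6% rose and 27.5% fell. By at least 2-fold, 3 clients rose and 1 fell, where 3.22% and 1.24% of all genes did. With libraries scaled to equal totals 11 fell. BTK, the target of ibrutinib, had 2544, 2476 and 2382 in the PU libraries, against 2783, 2907 and 2827 in the DMSO libraries (log2 fold change -0.20, SE 0.043, limma adjusted p = 0.000106). AKT1 and CDK4 fell by 0.27 and 0.43 on the log2 scale, the checkpoint kinase CHEK1 fell by 0.76 and the G2 kinase WEE1 fell by 0.40. SYK and LYN, proximal kinases of the B cell receptor, rose by 0.22 and 0.21, and JAK1 rose by 0.42. IKBKB, a kinase of the NF-kB pathway, was not called, with a log2 fold change of -0.08 (limma adjusted p = 0.313). Among the genes named here falls outnumber rises, whereas on the whole list 15 rose and 6 fell. Client protein levels were not measured.

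**Figure D3:**
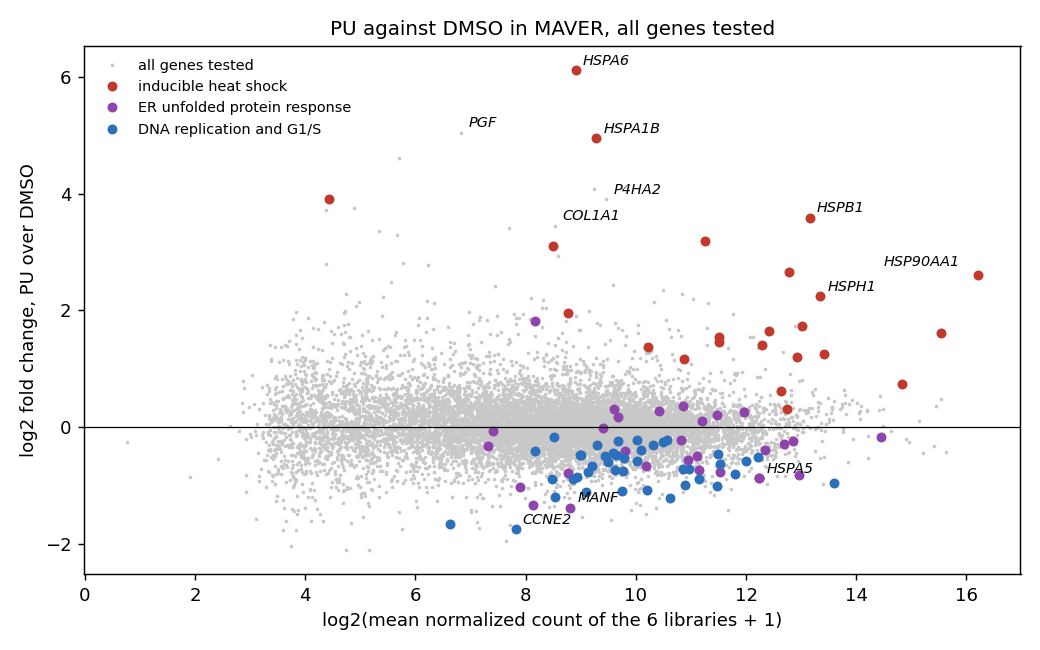
Log2 fold change of PU over DMSO against log2(mean normalized count of the 6 libraries + 1) for all 11099 genes tested (grey), with the inducible heat shock (red), ER unfolded protein response (purple) and DNA replication and G1/S (blue) lists. HSPA6 is highest at 6.12, heat shock genes lie above 0 except HSPA5, and 41 of 42 replication genes were called lower.

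Outside the chaperones, the largest rises by the naming rule were PGF, SPNS3, LCN10, P4HA2, COL1A1 and DOK2. PGF, an angiogenic growth factor, had 203, 223 and 231 in the PU libraries, against 3.68, 7.62 and 6.25 in the DMSO libraries, a log2 fold change of 5.05. LCN10, a lipocalin, had 1116, 1156 and 1152 in the PU libraries, against 62.6, 59.1 and 79.0 in the DMSO libraries (log2 fold change 4.08, SE 0.12, limma adjusted p = 1.74e-28). SPNS3, a sphingolipid transporter family member, had 83.9, 102 and 111 in the PU libraries, against 3.68, 1.91 and 3.91 in the DMSO libraries, a log2 fold change of 4.61. PGF and SPNS3 passed the filter on low values through the PU group, the single group with a mean over 10, so their values are a description. DOK2, an adaptor of tyrosine kinase signalling, had 373, 377 and 382 in the PU libraries, against 36.8, 33.3 and 33.6 in the DMSO libraries (log2 fold change 3.41, SE 0.17, limma adjusted p = 3.08e-20). In all 4 genes the groups were far apart, with DMSO levels under 100 normalized counts in every library.

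Some genes of collagen and its folding also had large rises. Of 21 listed, 12 were tested and the rest were too low. Of the 12, 8 rose, 6 of them by at least 2-fold, and 2 fell, with a median of 1.23. Over all genes tested, 27.6% rose and 27.5% fell, and 3.22% rose by at least 2-fold. Without DMSO library A, DMSO library B or PU library A, 1 fell. The collagen genes COL1A2 and COL3A1 reached at most 1.86 and 0 normalized counts in the 6 libraries. P4HA2, a collagen prolyl hydroxylase, had 1318, 1294 and 1358 in the PU libraries, against 92.1, 88.6 and 81.3 in the DMSO libraries (log2 fold change 3.91, SE 0.11, limma adjusted p = 1.92e-29). COL1A1, the alpha 1 chain of type I collagen, had 652, 655 and 733 in the PU libraries, against 61.7, 62.9 and 58.6 in the DMSO libraries (log2 fold change 3.45, SE 0.14, limma adjusted p = 2.39e-23). PLOD1, a collagen lysyl hydroxylase, and P4HA1 rose by 2.28 and 1.56. SERPINH1, given above, belongs to both lists. COL1A1 is also on the stromal marker list, of which 4 of 14 genes were tested and all 4 rose, although KRT18 lost its call without DMSO library A or C or PU library B or C. The summed level of that list was between 1547 and 1595 normalized counts with PU and between 551 and 612 with DMSO, and without COL1A1 it was between 862 and 908 with PU and between 489 and 549 with DMSO. Of the 14, 7 were at 0 in all 6 libraries. The part of other cells in the COL1A1 rise was not tested.

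Other stress programmes moved in both directions. Of 26 integrated stress response genes, the amino acid and translation stress programme driven by ATF4, 18 rose and 4 fell, with a median of 0.52. Over all genes tested, 27.6% rose and 27.5% fell. ALDH1L2, a mitochondrial folate enzyme, had 732, 644 and 669 in the PU libraries, against 78.3, 94.3 and 93.0 in the DMSO libraries (log2 fold change 2.93, SE 0.12, limma adjusted p = 1.63e-23). DDIT4 (REDD1), an inhibitor of mTORC1, had 2353, 2319 and 2329 in the PU libraries, against 666, 648 and 643 in the DMSO libraries (log2 fold change 1.84, SE 0.052, limma adjusted p = 1.61e-28). The serine synthesis genes PSAT1 and PHGDH rose by 1.66 and 1.55, and the tryptophanyl-tRNA synthetase WARS by 1.36.

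Most genes of the ER unfolded protein response fell: of 28 tested, 7 rose and 18 fell (27.5% of all genes fell), with a median of -0.31. With IB 3 of them rose and 18 fell (9.65% of all genes fell), with a median of -0.20. With KPT 5 rose and 13 fell (28.5% of all genes fell), with a median of -0.13. MANF, a secreted ER stress factor, had 236, 265 and 242 in the PU libraries, against 636, 640.1 and 667 in the DMSO libraries (log2 fold change -1.39, SE 0.068, limma adjusted p = 1.61e-20). CALR (calreticulin) and PDIA4, ER folding proteins, fell by 0.83 and 0.77 on the log2 scale. ERN1, which encodes the ER stress sensor IRE1, had the largest rise of the list with PU. It had 451, 425 and 467 in the PU libraries, against 134, 132 and 113 in the DMSO libraries (log2 fold change 1.82, SE 0.11, limma adjusted p = 3.76e-18).

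Of 21 NRF2 and oxidative stress genes, 13 rose and 5 fell (27.6% and 27.5% of all genes tested), with a median of 0.21. Without PU library A, PU library B or DMSO library B, 3 fell. HMOX1 (haem oxygenase 1), which also responds to heat shock, had 2029, 2114 and 2132 in the PU libraries, against 469.8, 491 and 450.3 in the DMSO libraries (log2 fold change 2.15, SE 0.06, limma adjusted p = 5.64e-29). PRDX1 and FTL rose by 0.80 and 0.63.

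Genes of DNA synthesis fell almost throughout. Of 42 DNA replication and G1/S genes, 41 fell, 8 of them by at least 2-fold, and 0 rose, with a median of -0.66. Over all genes tested, 27.5% fell and 27.6% rose, and 1.24% fell by at least 2-fold. The list's summed level was 49110 ± 386.5 normalized counts with PU and 80520 ± 555 with DMSO (SD, n = 3 each). CCNE2, a cyclin of S phase entry, had 99.7, 111 and 96.8 in the PU libraries, against 351, 346 and 343 in the DMSO libraries (log2 fold change -1.75, SE 0.085, limma adjusted p = 1.34e-20). MCM4, a subunit of the replicative helicase, had 973, 907 and 943 in the PU libraries, against 2147, 2232 and 2209 in the DMSO libraries (log2 fold change -1.22, SE 0.049, limma adjusted p = 1.64e-23). CDC6, PCNA and MCM7 fell by 1.07, 1.01 and 0.96 on the log2 scale. CCNE1, among the largest falls, had 48.6, 43.6 and 47.5 in the PU libraries, against 169, 140.0 and 142 in the DMSO libraries (log2 fold change -1.67, SE 0.14, limma adjusted p = 3.46e-13). Compared directly, 40 of the 42 were lower with PU than with KPT and 41 were lower with PU than with IB (28.6% and 27.6% of all genes were lower).

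Of 41 mitotic genes tested, 21 rose and 3 fell (27.6% and 27.5% of all genes tested), with a median of 0.11. When reads were thinned to the depth of the shallowest library, 13 rose. CCNB2 (cyclin B2) had 3011, 2990.2 and 2784 in the PU libraries, against 2107, 2011 and 2113 in the DMSO libraries (log2 fold change 0.49, SE 0.047, limma adjusted p = 6.14e-12). No member rose by 2-fold, where 3.22% of all genes tested rose by at least that much.

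Of 40 ribosome biogenesis and MYC-linked genes, 39 fell and 0 rose (27.5% and 27.6% of all genes tested), with a median of -0.67. TFRC, the transferrin receptor, had 1847, 1742 and 1711 in the PU libraries, against 4994, 4687 and 4588 in the DMSO libraries (log2 fold change -1.43, SE 0.047, limma adjusted p = 2.33e-26). LDHA, NOLC1, ODC1 and DDX21 fell by 0.97, 0.88, 0.84 and 0.84. MYC itself was not called, with 4905, 5061 and 5316 in the PU libraries, against 5168, 5421 and 5393 in the DMSO libraries (log2 fold change -0.07, SE 0.04, limma adjusted p = 0.17); with equal totals it was called lower at -0.11. Of 50 cytosolic ribosomal protein genes, 45 rose and 0 fell (27.6% and 27.5% of all genes tested), with a median of 0.29. RPL3 and RPLP0 rose by 0.42 and 0.41. With KPT the 40 biogenesis genes had 2 that rose and 33 that fell, and 48 of the 50 ribosomal protein genes rose. Over all genes tested, 27.3% rose and 28.5% fell with KPT.

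**Figure D4:**
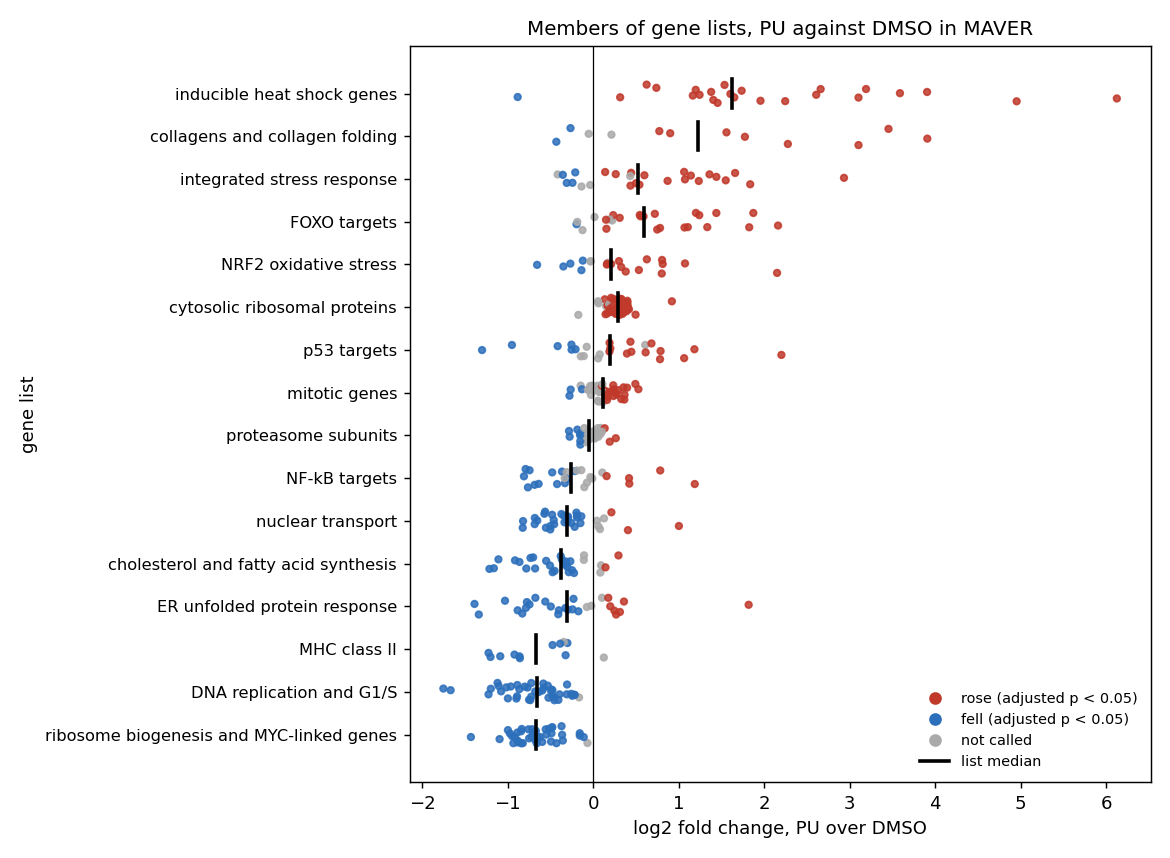
Log2 fold change of PU over DMSO for the tested members of 16 gene lists, 1 point per gene, coloured by call (red rose, blue fell, grey not called), with black bars at the list median; vertical spread within a row is only for legibility. The inducible heat shock median is 1.63, and the medians of the DNA replication and G1/S and the ribosome biogenesis lists are -0.66 and -0.67.

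The largest falls by the naming rule were in ATAD3B, CCNE2, FAM222A, WNT10A, PPARGC1B, CCNE1, FAM81A, HK2, KLF16, CD3EAP, DDX46 and HIVEP3. ATAD3B, a mitochondrial ATPase, had 83.9, 75.4 and 83.8 in the PU libraries, against 333, 328 and 290.0 in the DMSO libraries (log2 fold change -1.95, SE 0.11, limma adjusted p = 3.92e-18). HK2, the first enzyme of glycolysis, had 377, 385 and 352 in the PU libraries, against 1120.1, 1119 and 1117 in the DMSO libraries (log2 fold change -1.59, SE 0.063, limma adjusted p = 1.38e-23). PPARGC1B, a coactivator of mitochondrial genes, had 97.3, 102 and 96.8 in the PU libraries, against 335, 317 and 303 in the DMSO libraries (log2 fold change -1.68, SE 0.11, limma adjusted p = 5.55e-16). Side by side over the same DMSO libraries, HK2 had -1.59 with PU and -2.35 with KPT over DMSO, while CCNE2 had -1.75 with PU and 0.31 with KPT.

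**Figure D5:**
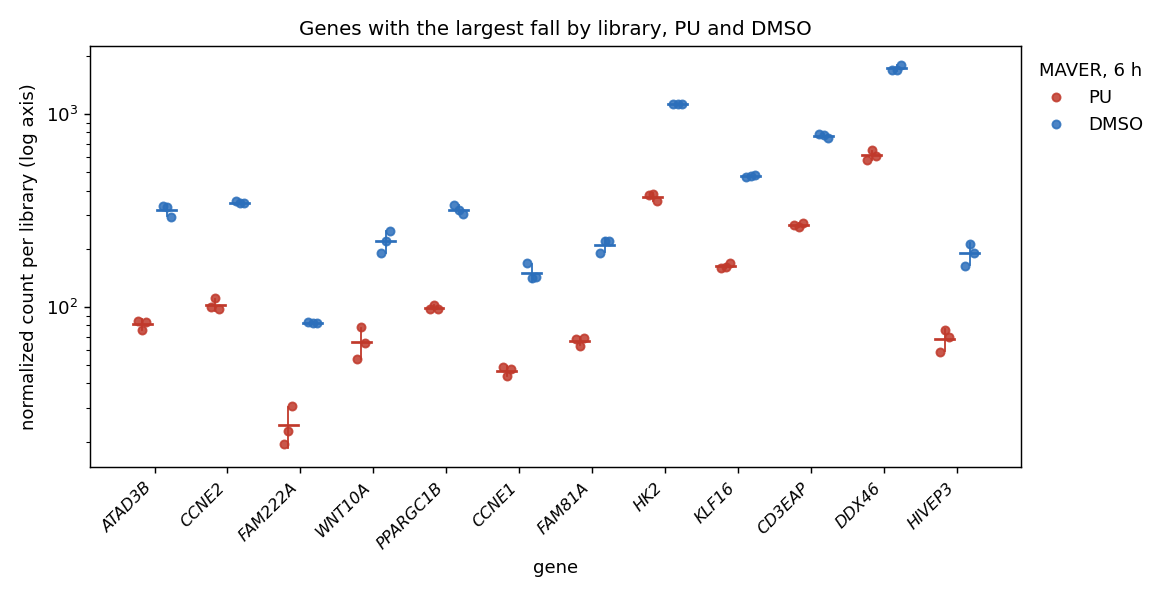
Normalized counts (log axis) of the 12 genes with the largest fall in each of the 3 PU libraries (red, left) and 3 DMSO libraries (blue, right), with lines at the mean and bars of 1 SD. The groups are separate for all 12, and the log2 fold changes run from -1.95 for ATAD3B to -1.46 for HIVEP3.

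Most lipid synthesis genes fell: of 28 cholesterol and fatty acid genes, 22 fell and 2 rose (1 without DMSO library C), with a median of -0.37. Over all genes tested, 27.5% fell and 27.6% rose. FASN and SCD, which make and desaturate fatty acids, fell by 1.16 and 1.11 on the log2 scale. Of 33 nuclear transport genes, 26 fell and 3 rose, with a median of -0.30. With KPT 24 of them fell and 3 rose, also with a median of -0.30 (28.5% and 27.3% of all genes tested fell and rose with KPT). RANGAP1, the Ran GTPase activator, rose with 7045, 6652 and 7110.1 in the PU libraries, against 3432, 3685 and 3267 in the DMSO libraries (log2 fold change 1.004, SE 0.048, limma adjusted p = 7.05e-21). XPO1, the target of selinexor, had 4479, 4168 and 4132 in the PU libraries, against 5229, 5134 and 5333 in the DMSO libraries (log2 fold change -0.30, SE 0.042, limma adjusted p = 8.93e-08), and its log2 fold change over DMSO was 1.10 with KPT.

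Most MHC class II genes, through which B cells present antigen, fell: of 12 tested, 10 fell, 3 of them by at least 2-fold, and 0 rose, with a median of -0.66. Over all genes tested, 27.5% fell and 27.6% rose, and 1.24% fell by at least 2-fold. HLA-DQA1 had 834, 786 and 832 in the PU libraries, against 1916, 1929 and 1877 in the DMSO libraries (log2 fold change -1.22, SE 0.046, limma adjusted p = 1.88e-24). HLA-DRB1 and HLA-DQB1 fell by 1.08 and 0.86 on the log2 scale; class II genes have close paralogues among which reads may be split. With KPT the 12 genes had a median of 0.46, and 11 were lower with PU than with KPT and 11 lower than with IB (28.6% and 27.6% of all genes were).

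Genes of B cell identity and signalling changed in both directions. Of 31 identity genes, 14 rose and 8 fell (27.6% and 27.5% of all genes tested), with a median of 0.02. None changed by 2-fold, where 3.22% of all genes tested rose and 1.24% fell by at least that much. CCND1, the cyclin D1 gene that the t(11;14) translocation drives in mantle cell lymphoma, had 41819, 42858 and 44282 in the PU libraries, against 57228, 59040.2 and 57604 in the DMSO libraries (log2 fold change -0.43, SE 0.036, limma adjusted p = 1.52e-13). SPIB, a B cell transcription factor, had 3608, 3459 and 3609 in the PU libraries, against 7064, 7162 and 6905 in the DMSO libraries (log2 fold change -0.98, SE 0.043, limma adjusted p = 2.45e-22), and IRF8, another, rose by 0.96. Of 30 B cell receptor pathway genes, 9 rose and 13 fell (27.6% and 27.5% of all genes tested). VAV1 and PIK3AP1 (BCAP), which act below the receptor, fell by 0.83 and 0.66.

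Of 26 NF-kB targets, 12 fell and 5 rose (27.5% and 27.6% of all genes tested), with a median of -0.26. NFKBIA, which encodes the inhibitor IkB-alpha, had 499.9, 500.3 and 566 in the PU libraries, against 844, 889 and 886 in the DMSO libraries (log2 fold change -0.74, SE 0.059, limma adjusted p = 6e-14). BIRC3 and NFKB2 fell by 0.81 and 0.79. CFLAR, an inhibitor of caspase-8, rose with 1514, 1475 and 1499 in the PU libraries, against 660.4, 679 and 628 in the DMSO libraries (log2 fold change 1.19, SE 0.056, limma adjusted p = 5.34e-21). Among 23 immediate early genes, 8 rose and 6 fell, shares near the 27.6% and 27.5% of all genes tested. RGS2, a regulator of G protein signalling, rose by 2.44, whereas JUNB and IER2 fell by 1.36 each.

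Most FOXO targets rose: 19 of 25 were called higher, 9 of them by at least 2-fold, and 1 lower, with a median of 0.59. Over all genes tested, 27.6% rose and 27.5% fell, and 3.22% rose by at least 2-fold. Among the 24 with a DMSO mean of at least 10, 18 rose and 1 fell. CCNG2, an atypical cyclin, had 652, 675 and 674 in the PU libraries, against 191, 174 and 198 in the DMSO libraries (log2 fold change 1.83, SE 0.067, limma adjusted p = 8.23e-25). GABARAPL1, an autophagy protein, rose by 2.16. Over the same DMSO libraries, 21 of the 25 rose and 1 fell with KPT, with a median of 0.67. With IB 10 rose and 1 fell, with a median of 0.20. Of all genes tested, 27.3% rose and 28.5% fell with KPT, and 10.1% rose and 9.65% fell with IB. CCNG2 was at 2.89 with KPT and 0.69 with IB. Compared directly, 8 of the 25 were higher with PU than with KPT and 13 were lower (28.3% and 28.6% of all genes). Of 25 p53 targets, 13 rose and 6 fell (27.6% and 27.5% of all genes tested), with TP53INP1 at 2.20 and AEN at -1.30. BCL2 family genes rose in 8 of 16 and fell in 2 (1 without DMSO library B or C or PU library B or C), against the same shares. BCL2 was at 0.35, BCL2L11 (BIM) at 0.30 and MCL1 at 0.23. Of 28 interferon-stimulated genes, 11 rose and 6 fell, where 27.6% of all genes tested rose and 27.5% fell. BST2 (tetherin) had 4002, 4259 and 4198 in the PU libraries, against 978, 959 and 903 in the DMSO libraries (log2 fold change 2.13, SE 0.055, limma adjusted p = 5.75e-30).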

How the data were processed

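Total RNA libraries (TruSeq Stranded, single-end 50-base reads per the labels' protocols) were analysed from a table of gene values that the authors deposited for the 12 MAVER libraries. Its values are a normalized signal: per the labels' protocols and the submitters' processing notes, reads were aligned with STAR, abundance was estimated with Cufflinks and differential expression was tested with DESeq2 (build hg19, versions not given in the sources used here). Within each library the deposited values were whole multiples of the smallest positive value for 100% of values (within 0.01 of a read), so each is a read count divided by a library factor, and whole reads were recovered. The values behave as normalized counts, and they were called so here.

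Fitting used limma 3.58.1 in R 4.3.3 (lmFit, then eBayes with its trend option). It took log2 of the normalized count plus a pseudocount of 1, all 12 MAVER libraries in 1 fit (4 groups of 3, 8 residual degrees of freedom), genes averaging 10 or more, and Benjamini-Hochberg adjustment over 11099 genes. The count test on recovered reads with edgeR 4.0.16 (TMM, quasi-likelihood) called 6425 genes, and DESeq2 1.42.0 called 5816. Reads per library were 5374226 to 17040599 over the 12 libraries, which sets the precision of low genes. Genes named in the text are the 12 largest rises and 12 largest falls (called, mean of at least 50 over the 6 libraries, no overlap, and no name altered to a date, as 28 names in the table were), all members of 5 chaperone lists, the 5 members with the smallest p of every other list, and BTK, XPO1, NFKBIA, CCND1, MYC and RNA45S5; AKT1, SYK, LYN and IKBKB were chosen after their values were seen, and some genes that the rule names are not reported here. The members and the 37 lists were chosen with earlier results of these data known. Promoters came from RefSeq GRCh38.p14, and no coordinate was taken from the deposited table. Alternatives tried were other pseudocounts (0.5 and 5), filters, scalings, fits, tools, thinned reads and leaving out each library.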

Additional observations from a re-analysis of the deposited data

How the results depend on the processing

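All 9 counts of called genes were recomputed, each under 19 other settings. The counts that moved by more than 1.5 times were those at 2-fold or more against DMSO: with no filter on low values, 563 genes rose and 231 fell, and with a mean of at least 50, 236 rose and 81 fell, where more or fewer low genes were tested. The number called with PU over DMSO lay between 5582 and 5710 when 1 of the 6 compared libraries was left out. With equal totals the median of all genes moved to -0.03, and 2675 rose and 3443 fell; with reads thinned to the shallowest library 2376 rose and 3182 fell. Library letters are shared across groups. Deviations from the group means correlated between -0.06 and 0.07 for same-letter PU and DMSO libraries. The different-letter libraries DMSO B and PU C had 0.14, so these correlations do not settle whether a letter marks a shared batch. The main fit took the libraries as unpaired. With the replicate block 3046 rose and 3047 fell. Of 193 named genes called, 6 lost the call in at least 1 setting, namely BAG1, CCT8, FNIP1, KRT18, PLK1 and RPAP3. Of 4169 pairs of a named gene and a setting, 4126 kept direction and call, 36 lost the call and 7 gained it. Of 1406 pairs of a list count and a setting, 36 moved by more than 1.5 times.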

Other observations

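Replication-dependent histone genes, whose transcripts lack poly(A) tails, were tested in 14 cases: 1 rose with PU and 0 fell against DMSO. Over all genes tested, 27.6% rose and 27.5% fell. Of the 14, 6 had a DMSO mean under 10, a level at which few changes can be called. In glycolysis and the hypoxia response, 7 of 28 genes rose and 13 fell with PU (27.6% and 27.5% of all genes tested), with P4HA1 at 1.56 and BNIP3L at 0.76 among the rises, and GPI at -0.52 among the falls (log2 fold change over DMSO). Of 4 ERK feedback genes tested, 0 rose and 1 fell, DUSP2 at -0.66, too few genes to set against the 27.6% and 27.5% of all genes tested.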
